A study of Mus musculus with 16 samples.

Results

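The E15.5 cerebral cortex of *Knl1* conditional knockout (cKO) mice was compared with that of control (ctrl) mice from the same litters by UMI RNA-seq. The comparison used the mice whose labels give litter 1 or litter 2, 8 of the 16 libraries of the series. These came from 7 of its 15 mice, 4 ctrl and 3 cKO. In litter 1 the ctrl mice were 2 (male) and 6 (female), and the cKO mice were 5 (male) and 7 (female). In litter 2 the ctrl mice were S1 and S3, both male, and the only cKO mouse was S2, a female. Libraries S2 and S2b were added together as mouse S2. Genotypes are labelled with the older gene name, as Casc5 wild type for ctrl and as an *hGFAP-Cre* Casc5 conditional KO for cKO, and the labels do not say whether ctrl mice carried *hGFAP-Cre*. No mouse here carried a *Trp53* deletion according to its label. Per the methods of the study, cKO mice were *Knl1* fl/fl with the *hGFAP-Cre* transgene, which recombines in cortical progenitors from E12.5. Cells that enter the cortex from elsewhere, such as interneurons, microglia and blood vessels, are outside the reach of that transgene, and the dissected tissue holds them all.

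*Knl1* encodes a scaffold of the kinetochore, the protein assembly that ties chromosomes to the mitotic spindle and recruits the spindle checkpoint. Cells that missegregate chromosomes can activate p53, a transcription factor that raises genes of cell cycle arrest, repair and death. In the embryonic cortex, apical progenitors line the ventricle and give rise to intermediate progenitors, marked by *Eomes*, which divide to make excitatory neurons. Inhibitory interneurons are born in the ventral telencephalon and migrate into the cortex.

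Each count is a deduplicated cDNA molecule assigned to a gene. The ctrl mice had 574401 to 3266227 counts and the cKO mice 4178461 to 8800987, so every cKO mouse was sequenced more deeply than every ctrl mouse. Before TMM scaling, 3 counts amounted to 5.22 CPM (a gene's counts scaled to a common library size) in ctrl mouse 2 and to 0.341 CPM in cKO mouse S2, floors that cover counting error only. Ctrl mouse 2, the shallowest, stood apart. Its log2 CPM correlated with those of the other mice at 0.909 to 0.926, against 0.959 to 0.984 among the others, across 12458 genes that are not independent. The first principal component, 49.2% of the variance, set it off from the other 6. The labels put ctrl mouse S1 in batch 2 and the other 6 mice in batch 1. Levels below are CPM scaled by TMM, as values per mouse or mean ± SD, and log fold changes are cKO over ctrl on the log2 scale, with litter as a blocking factor. P-values measure the spread between these 7 mice.

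*Knl1* itself (ENSMUSG00000027326, GRCm38 chromosome 2, 119047119 to 119105501) was not lower in cKO. In litter 1 it was at 50.4 and 48.2 CPM in ctrl mice 2 and 6 and at 50.4 and 49.4 CPM in cKO mice 5 and 7. In litter 2 it was at 71.9 and 68.1 CPM in ctrl mice S3 and S1 and at 78.5 CPM in cKO mouse S2. The levels went with the litter and overlapped between the genotypes, with a log fold change of 0.10 (SE 0.12, edgeR likelihood ratio FDR of 0.984). Gene counts sum over all exons and all cells of the tissue, so they do not test the floxed exon alone. The genotype rests on the labels.

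Of 12458 genes that passed the filter on low counts, 109 differed between cKO and ctrl at an FDR below 0.05 (0.875%). Of these, 35 were higher in cKO (0.281%) and 74 were lower (0.594%), in the edgeR likelihood ratio test with Benjamini-Hochberg adjustment. The median log fold change was 0.76 among the higher and −0.78 among the lower genes, and 34 of the 109 changed by 1 or more on the log2 scale. All 109 had the same sign in both litters. Of the 35 higher genes, 35 were above every ctrl mouse of the same litter in both litters, against 6.65% of all genes tested, and 67 of the 74 lower genes were below, against 5.84%. Over all 7 mice, 27 of the higher genes did not overlap between the genotypes (2.86% of all genes) and 39 of the lower genes did not (2.9%). These shares describe genes that the same test called. Without adjustment, 957 genes had a p below 0.05 (7.68%), 416 of them higher (3.34%) and 541 lower (4.34%). The quasi-likelihood test of edgeR called 5 genes (0.0401%, with 6.94% at an unadjusted p below 0.05), which were *Ano3*, *Eda2r*, *Pvt1*, *Eomes* and *Creb5*, and DESeq2 called 34 of the 6178 genes to which it gave an adjusted p (0.55%). It gave none to 40 of the 109 genes, and its counts below cover only list members with an adjusted p (0 members in the interferon, choroid plexus, meninges and blood lists, and 1 each in the microglia, endothelial and pericyte lists). Only *Ano3*, *Eda2r*, *Pvt1*, *Map3k20*, *Eomes* and *Creb5* were called in each of the 7 fits that left out a mouse.

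**Figure D1:**
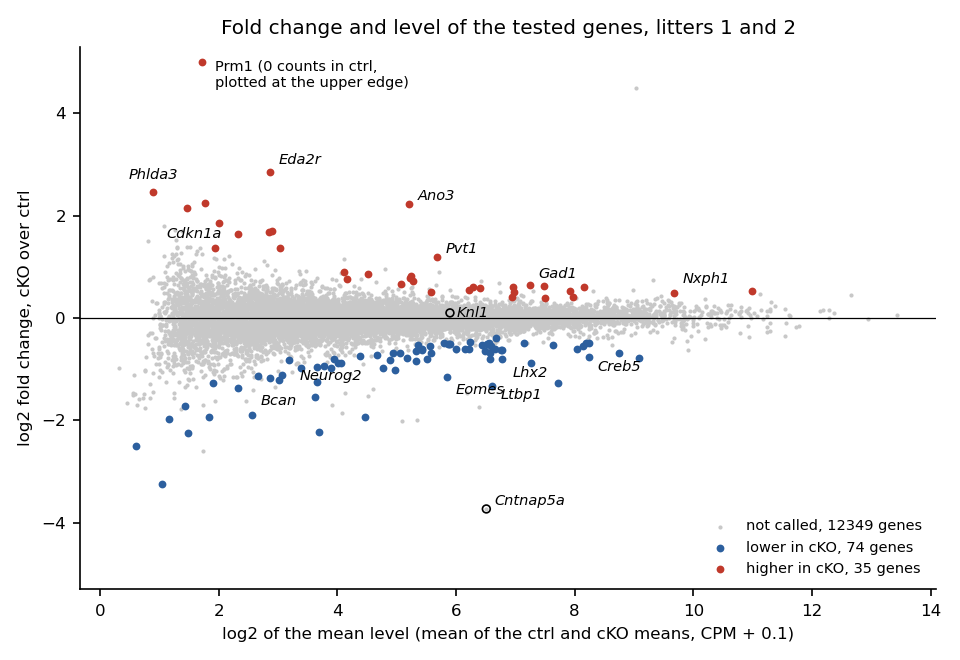
Log2 fold change of cKO over ctrl (y axis) against the log2 of the mean level in CPM (x axis) for the 12458 genes tested. The 35 genes called higher are red and the 74 called lower are blue. *Prm1*, with 0 ctrl counts, is placed at the upper edge, *Knl1* (circled) lies near 0, and *Cntnap5a* (circled) is low but not called.

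Some transcriptional targets of p53 rose. Of 24 tested targets that act in arrest or feedback, 5 rose and none fell. Of 15 tested targets that act in death or have other roles, 3 rose and none fell. The median log fold changes of these lists were 0.25 and 0.38, beside −0.00134 over all genes tested, of which 0.281% were called higher. The study named 7 of these 8 genes from the same samples, so their direction is not independent evidence. *Phlda3* is the one called gene of these lists outside that choice.

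*Ano3*, a calcium-regulated membrane protein of the anoctamin family (ENSMUSG00000074968, chromosome 2, 110655201 to 110950923, minus strand), was at 12.2, 14, 11.7 and 11.9 CPM in ctrl mice 2, 6, S3 and S1. In cKO mice 5, 7 and S2 it was at 65.0, 64.0 and 55.7 CPM. The 3 cKO mice were all above the 4 ctrl mice, and the log fold change was 2.23 (SE 0.18, edgeR FDR of 1.94e-41). *Eda2r*, a receptor of the TNF receptor family on chromosome X (ENSMUSG00000034457, 97333840 to 97377216, minus strand), was at 1.74, 2.80, 1.02 and 0.541 CPM in the same ctrl mice. In cKO it was at 13, 14.4 and 11.3 CPM. It rests on 13 counts in all ctrl mice and 227 in cKO, with a log fold change of 2.85 (SE 0.44, FDR of 1.5e-12, edgeR). *Dglucy*, a mitochondrial enzyme that degrades D-glutamate, was at 5.21, 4.36, 1.53 and 2.70 CPM in ctrl and at 10.1, 11.7 and 10.5 CPM in cKO. Its cKO values also lay above all ctrl values, with a log fold change of 1.69 (SE 0.34).

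Among the targets of arrest and feedback, the long noncoding RNA gene *Pvt1*, a neighbour of *Myc*, rose from 40.0 and 34.5 CPM in ctrl mice 2 and 6 and 27.6 and 23.3 CPM in S3 and S1. In cKO mice 5, 7 and S2 it was at 64.0, 83.1 and 66.8 CPM, a log fold change of 1.19 (SE 0.16, edgeR FDR of 4.35e-10). *Map3k20*, a stress-activated kinase also known as ZAK, was at 23.3 to 31.3 CPM in ctrl and 44.9 to 49.9 CPM in cKO (log fold change 0.78, SE 0.14). *Cdkn1a*, the p21 inhibitor of cyclin-dependent kinases, was at 0, 3.11, 1.53 and 2.70 CPM in ctrl and at 8.69, 9.29 and 5.88 CPM in cKO, without overlap (log fold change 1.64, SE 0.38, FDR of 0.000912). The cyclin gene *Ccng1* was at 6.95 and 9.96 CPM in litter 1 ctrl and at 23.5 and 25.2 CPM in litter 1 cKO. In litter 2 its values lay closer, 15.3 and 14.1 CPM in ctrl and 19.8 CPM in cKO. *Phlda3*, an inhibitor of AKT signaling, had at most 0.622 CPM in ctrl and 2.17, 4.15 and 3.00 CPM in cKO, which is few counts in all mice (log fold change 2.46, SE 0.79, FDR of 0.0186).

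**Figure D2:**
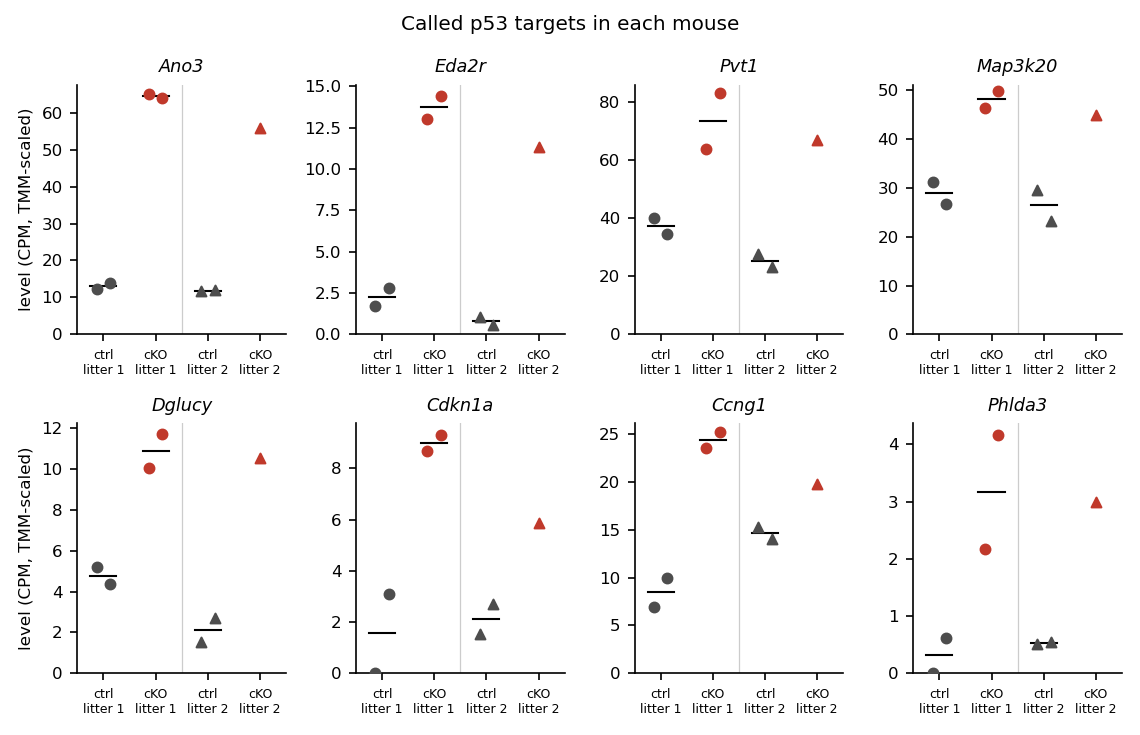
Level in CPM (y axis, from 0) of the 8 called p53 targets in each mouse, by genotype and litter. Gray points are ctrl and red points cKO, circles are litter 1 and triangles litter 2, and bars are means of 2 mice. In all 8 panels the 3 cKO mice lie above the 4 ctrl mice.

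Other p53 targets were near the threshold, near 0 or not resolved by these counts. *Sesn2*, a stress sensor, had a log fold change of 1.16 (SE 0.37, FDR of 0.081) and no overlap between the genotypes. *Zmat3*, an RNA-binding regulator, had 0.48 (SE 0.15, FDR of 0.0889). *Mdm2*, the ubiquitin ligase that degrades p53, was at 73.0 to 82.7 CPM in ctrl and 77.5 to 83.7 CPM in cKO (log fold change 0.09, SE 0.12, FDR of 0.99). *Bbc3*, the death activator PUMA, was at 1.74 to 6.22 CPM in ctrl and 5.33 to 5.62 CPM in cKO (0.32, SE 0.34). Its log fold change ran from 0.01 to 0.83 with a mouse left out, so these counts do not resolve it. The study reported an increase of *Bbc3* in cKO by droplet digital RT-PCR. Of 26 tested genes of the BCL2 family, caspases and their inhibitors, 0 were called, 0 had an unadjusted p below 0.05 in the edgeR likelihood ratio test, and the list median was 0.05. The quasi-likelihood test and DESeq2 also called 0 of them. *Pmaip1*, of the same list, did not pass the filter. Its counts were 0, 0, 0 and 3 in ctrl mice 2, 6, S3 and S1. In cKO mice 5, 7 and S2 they were 11, 13 and 19. *Birc3*, also of that list, had 0, 3, 2 and 2 against 6, 1 and 3. *Fas*, of the p53 death list, had 0, 2, 0 and 0 against 9, 6 and 9. *Perp* had 0, 3, 2 and 2 against 3, 2 and 9. Every ctrl mouse was shallower than every cKO mouse, and these genes were not tested in the fit with the filter. *Trp53cor1*, a noncoding RNA that p53 induces, did not pass the filter on low counts, with 0, 1, 0 and 0 counts in ctrl mice 2, 6, S3 and S1 and 12, 7 and 14 in cKO. Summed over the 8 p53 targets that the study named, *Trp53cor1* included, the level was 78.4 to 97.3 CPM in ctrl and 217 to 259 CPM in cKO. The 8 called targets had 1 member with an unadjusted p below 0.05 for a difference between litters.

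The promoters of the called p53 targets were searched for the p53 half-site consensus, because these genes moved together. RefSeq windows from 250 bases before to 50 bases after a start site (GRCm38.p6) were on hand for 7 of the 8 genes, all but *Pvt1*. Of these 7 genes, 2 had the consensus in a window, *Cdkn1a* and *Ccng1*. Over all tested p53 list members with a window, 12 of 33 genes had it (36.4%), beside 787 of 9565 tested genes (8.23%). The match is to the exact consensus by name, it reads the same on both strands, and it is a description of these windows only. The windows are shown on the strand of the gene, 5′ to 3′, with the half-sites in capitals.
*Cdkn1a*, chr17:29090729-29091028, plus strand: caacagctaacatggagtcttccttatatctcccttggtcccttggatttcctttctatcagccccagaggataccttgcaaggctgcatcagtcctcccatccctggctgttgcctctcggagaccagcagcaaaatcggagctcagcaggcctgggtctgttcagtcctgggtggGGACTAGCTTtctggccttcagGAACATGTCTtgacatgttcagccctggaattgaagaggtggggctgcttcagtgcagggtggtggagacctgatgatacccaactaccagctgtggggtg
*Ccng1*, chr11:40755237-40755536, minus strand: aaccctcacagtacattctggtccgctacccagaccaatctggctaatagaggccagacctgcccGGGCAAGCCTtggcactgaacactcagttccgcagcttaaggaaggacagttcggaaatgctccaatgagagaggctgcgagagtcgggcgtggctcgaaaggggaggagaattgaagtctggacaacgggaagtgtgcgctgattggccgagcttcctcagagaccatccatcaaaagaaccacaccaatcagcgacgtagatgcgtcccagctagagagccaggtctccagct
*Cdkn1a* had 2 windows, of which 1, shown here, held half-sites. They begin 73 and 51 bases before the start site of that window. The half-site in the *Ccng1* window begins 185 bases before its start site.

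Some genes of intermediate progenitors, apical progenitors and cortical (pallial) identity fell in cKO. Of 20 tested intermediate progenitor genes, 3 fell and none rose, with a median log fold change of −0.28 and 19 of the 20 below 0. Of 18 tested pallial identity factors, 5 fell and none rose, with a median of −0.40. Of 29 tested apical progenitor genes, 3 fell and none rose, with a median of −0.26 and 26 of the 29 below 0. Over all 12455 genes with a symbol of their own, 6277 were below 0, and 0.594% of all genes tested were called lower. In bulk tissue, fewer cells of a type and less RNA per cell cannot be told apart.

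*Eomes*, the transcription factor that marks intermediate progenitors (ENSMUSG00000032446, chromosome 9, 118478212 to 118486132), was at 64.3 and 96.5 CPM in ctrl mice 2 and 6 and at 81.6 and 76.8 CPM in S3 and S1. In cKO mice 5 and 7 it was at 27.5 and 32.5 CPM, and in cKO mouse S2 at 47.7 CPM. All cKO mice were below all ctrl mice, with S2 nearest to ctrl (log fold change −1.15, SE 0.19, edgeR FDR of 1.45e-06). *Neurog2*, the proneural factor that commits progenitors to an excitatory fate, was at 24.3, 39.2, 43.9 and 37.3 CPM in ctrl mice 2, 6, S3 and S1 and at 10.9, 15.9 and 28.1 CPM in cKO. Ctrl mouse 2 lay below cKO mouse S2 there, while both litters had lower cKO values on their own (−0.97, SE 0.23, FDR of 0.00732). *Rhbdl3*, a rhomboid-family gene, fell by 0.60 on the log2 scale (SE 0.13). *Elavl2*, an RNA-binding protein of new neurons, was not called, at −0.28 (SE 0.12, FDR of 0.47).

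Among pallial factors, *Lhx2*, which holds cortical fate in the dorsal telencephalon, was at 116, 151, 178 and 115 CPM in ctrl mice 2, 6, S3 and S1 and at 66.0, 67.7 and 105 CPM in cKO. The cKO values were all lower, by −0.79 on the log2 scale (SE 0.17, edgeR FDR of 0.00237). *Tfap2c*, a factor of basal progenitor formation, was at 16.5 to 25 CPM in ctrl and 8.10 to 13.8 CPM in cKO (−0.88, SE 0.19, FDR of 0.00451). *Emx1*, a homeobox gene of the dorsal cortex, had a log fold change of −0.83 (SE 0.20), and *Dmrta2*, a factor that patterns the cortex, one of −0.82 (SE 0.23). Dmrta2 was called with an FDR of 0.0496, at the edge of the threshold. *Pax6*, which belongs to both the apical and the pallial list, was at 48.6 and 58.5 CPM in litter 1 ctrl against 34.0 and 37.9 CPM in cKO. In litter 2 it was at 90.3 and 88.7 CPM against 68.7 CPM, so that its litters differed more than its genotypes (−0.51, SE 0.13, FDR of 0.0209). *Emx2*, another homeobox gene of the dorsal cortex, missed the threshold at −0.50 (SE 0.19, FDR of 0.363).

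**Figure D3:**
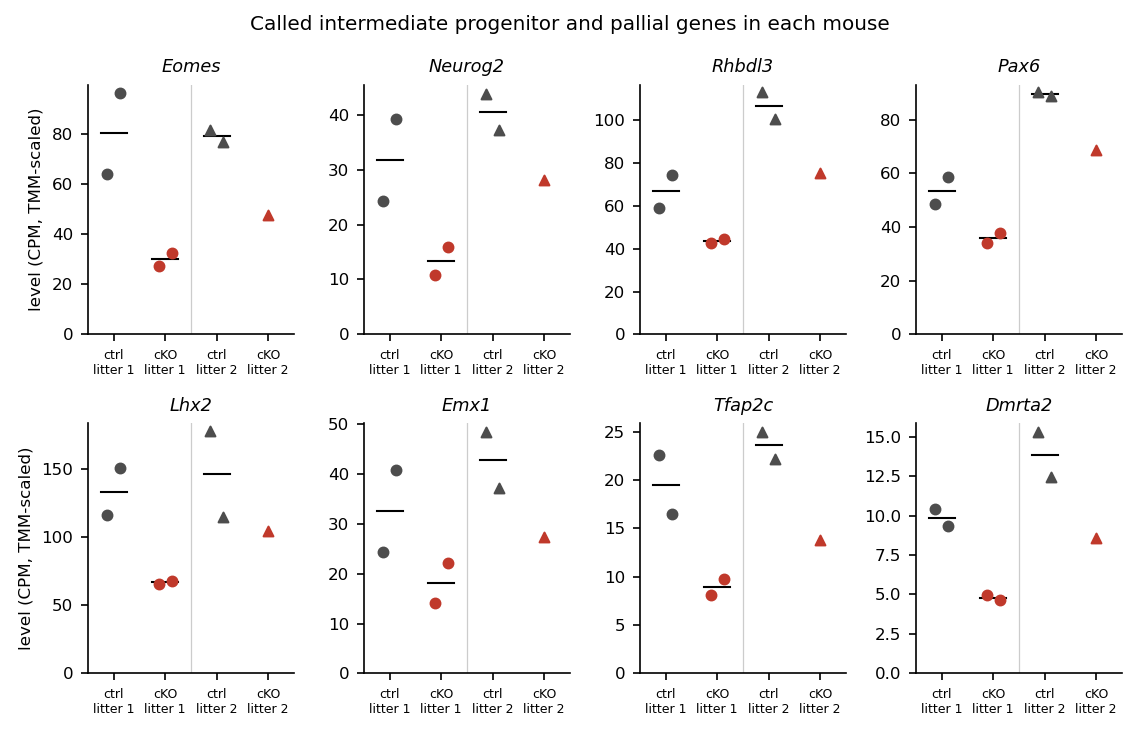
Level in CPM (y axis, from 0) of 8 called intermediate progenitor and pallial genes in each mouse, by genotype and litter. Gray points are ctrl and red points cKO, circles are litter 1 and triangles litter 2, and bars are means of 2 mice. Within each litter the cKO mice lie below the ctrl mice in all 8 panels, and *Pax6* levels are higher in litter 2 in both genotypes.

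Of the apical progenitor genes, *Ttyh1*, a membrane protein of radial glia, fell by 0.52 on the log2 scale (SE 0.14, edgeR FDR of 0.0421) and *Cdon*, a co-receptor for hedgehog signals, by 0.55 (SE 0.15, FDR of 0.0435). The Notch pathway, which keeps progenitors undifferentiated, had 0 of 21 tested genes called and a median of −0.15, with 18 of the 21 below 0. Its receptors *Notch1* and *Notch2* had log fold changes of −0.29 (SE 0.14, FDR of 0.559) and −0.44 (SE 0.14, FDR of 0.148). In the edgeR likelihood ratio test 6 Notch genes had an unadjusted p below 0.05, and the quasi-likelihood test and DESeq2 called 0. The progenitor calls depended on single mice. In fits without ctrl mouse 6, ctrl mouse S3, cKO mouse 5 or cKO mouse 7, 0 of the 29 apical genes were called. Of the pallial genes 0 were called without ctrl mouse 6, 2 without cKO mouse 7 or ctrl mouse S3 and 3 without cKO mouse 5. Of the intermediate progenitor genes 1 was called without ctrl mouse 6 and 2 without cKO mouse 7. The quasi-likelihood test called *Eomes* alone among these lists. DESeq2 called 0 of the 21 apical, 3 of the 9 intermediate progenitor and 1 of the 13 pallial genes to which it gave an adjusted p.

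Genes of cell division and DNA repair gave no calls. Of 26 tested kinetochore and spindle checkpoint genes, 42 genes of G2 and mitosis, 46 genes of replication and S phase and 35 genes of DNA damage signaling and repair, 0 were called, and the list medians were 0.04, 0.03, 0.03 and −0.05. In the edgeR likelihood ratio test, 1 kinetochore gene and 0 of the other 3 lists had an unadjusted p below 0.05, and the quasi-likelihood test and DESeq2 called 0. Summed levels of the G2 and mitosis genes went with the litter. They were 1417 and 1467 CPM in ctrl and 1443 and 1673 CPM in cKO of litter 1, and 2493 and 2131 CPM in ctrl and 2202 CPM in cKO of litter 2. *Mki67*, a marker of cycling cells, had a log fold change of 0.02 (SE 0.15), and *Top2a*, the topoisomerase of mitosis, −0.02 (SE 0.12), both at an FDR of 1.0. The one call among G1 cyclins and cyclin-dependent kinase inhibitors was *Cdkn1a*, given above.

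A pair of excitatory neuron genes fell. Of 21 tested, 2 fell and none rose, with a median of −0.23 that was −0.34 in litter 1 and −0.02 in litter 2. *Nrn1*, a secreted neurite growth factor, was at 51.5 to 62.7 CPM in ctrl and 32.3 to 45.3 CPM in cKO (−0.55, SE 0.14, edgeR FDR of 0.0212). *Nrp1*, a semaphorin and VEGF receptor, had −0.60 (SE 0.17, FDR of 0.0389) with overlap between the genotypes. The quasi-likelihood test, DESeq2, the fit with no filter and the fit with no litter block called 0 of the excitatory genes, as did the fits without ctrl mouse 6, ctrl mouse S1, cKO mouse 5 or cKO mouse 7. *Neurod2*, a general excitatory factor, had −0.19 (SE 0.14). Of 17 upper layer genes 1 fell, *Dok5*, an adaptor of receptor kinases (−0.62, SE 0.15), and *Unc5d*, a netrin receptor of migrating upper layer neurons, missed the threshold at −0.42 (SE 0.13, FDR of 0.111). Of 20 deep layer genes 0 were called, with a list median of 0.03, and of 12 Cajal-Retzius genes 0. In the edgeR likelihood ratio test 7 deep layer genes and 0 Cajal-Retzius genes had an unadjusted p below 0.05, 4 of the 7 higher in cKO, and the quasi-likelihood test and DESeq2 called 0 in either list.

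Some interneuron genes rose in cKO. Of 33 tested, 5 rose and none fell, the median log fold change was 0.33 and 27 of the 33 were above 0. Over all genes tested 0.281% were called higher, and 6178 of the 12455 with a symbol of their own were above 0. *Gad1*, the enzyme that makes GABA, was at 93.8 and 99.3 CPM in litter 1 ctrl and 209 and 164 CPM in litter 1 cKO. In litter 2 it was at 157 and 133 CPM in ctrl and at 175 CPM in cKO, so the genotypes did not overlap while the values lay closer in litter 2 (log fold change 0.65, SE 0.15, edgeR FDR of 0.00909). *Nxph1*, a ligand of neurexins, was at 610 to 728 CPM in ctrl and 777 to 1141 CPM in cKO (0.48, SE 0.12, FDR of 0.0158). *Fgd3*, an activator of CDC42, had 0.67 (SE 0.17), *Lhfpl3*, a tetraspan membrane protein, 0.42 (SE 0.11), and *Ackr3*, the chemokine receptor that guides interneuron migration, 0.76 (SE 0.22, FDR of 0.0496). *Erbb4*, the neuregulin receptor of interneurons, missed the threshold at 0.47 (SE 0.14, FDR of 0.063), as did *Gad2* at 0.53 (SE 0.18, FDR of 0.201). The antisense gene *Dlx1as* rose by 0.52 (SE 0.13), and its reads could not be told apart from those of its partner *Dlx1* where counting ignored strand. The study had named *Gad1*, *Nxph1*, *Fgd3* and *Lhfpl3* from these samples, which is no independent support for their direction.

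The median of the interneuron list was 0.53 in litter 1 and 0.11 in litter 2. In the fits without ctrl mouse 6, cKO mouse 5 or cKO mouse 7, 0 interneuron genes were called, and 3 were called without ctrl mouse 2 or S1. The quasi-likelihood test called 0 and DESeq2 called 4. Most markers of the adjacent striatum had values above 0. Of 21 tested striatal and ventral telencephalic genes, 0 were called, 19 were above 0 and the median was 0.68. In the edgeR likelihood ratio test 9 of the 21 had an unadjusted p below 0.05, beside 7.68% of all genes tested. The quasi-likelihood test and DESeq2 called 0. Their summed level was 2798 to 4082 CPM in ctrl, lowest in mouse 6, and 4027 to 4524 CPM in cKO. *Drd2*, the dopamine receptor of the indirect pathway, was at 3.47, 7.78, 9.18 and 6.49 CPM in ctrl and 19.2, 15.9 and 10.5 CPM in cKO (0.92, SE 0.27, FDR of 0.063). *Ebf1*, a factor of striatonigral neurons, was at 216 CPM in ctrl mouse 6 and 432 to 651 CPM in the other ctrl mice, and at 671 to 926 CPM in cKO (0.75, SE 0.27, FDR of 0.281). *Meis2*, the most abundant tested gene of the list, was at 1497 to 2001 CPM in ctrl and 1982 to 2140 CPM in cKO (0.19, SE 0.13, FDR of 0.844). *Pde10a*, also abundant, was at 379 to 525 CPM in ctrl and 394 to 533 CPM in cKO (0.005, SE 0.11). The part of striatal tissue in the interneuron result was not tested.

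**Figure D4:**
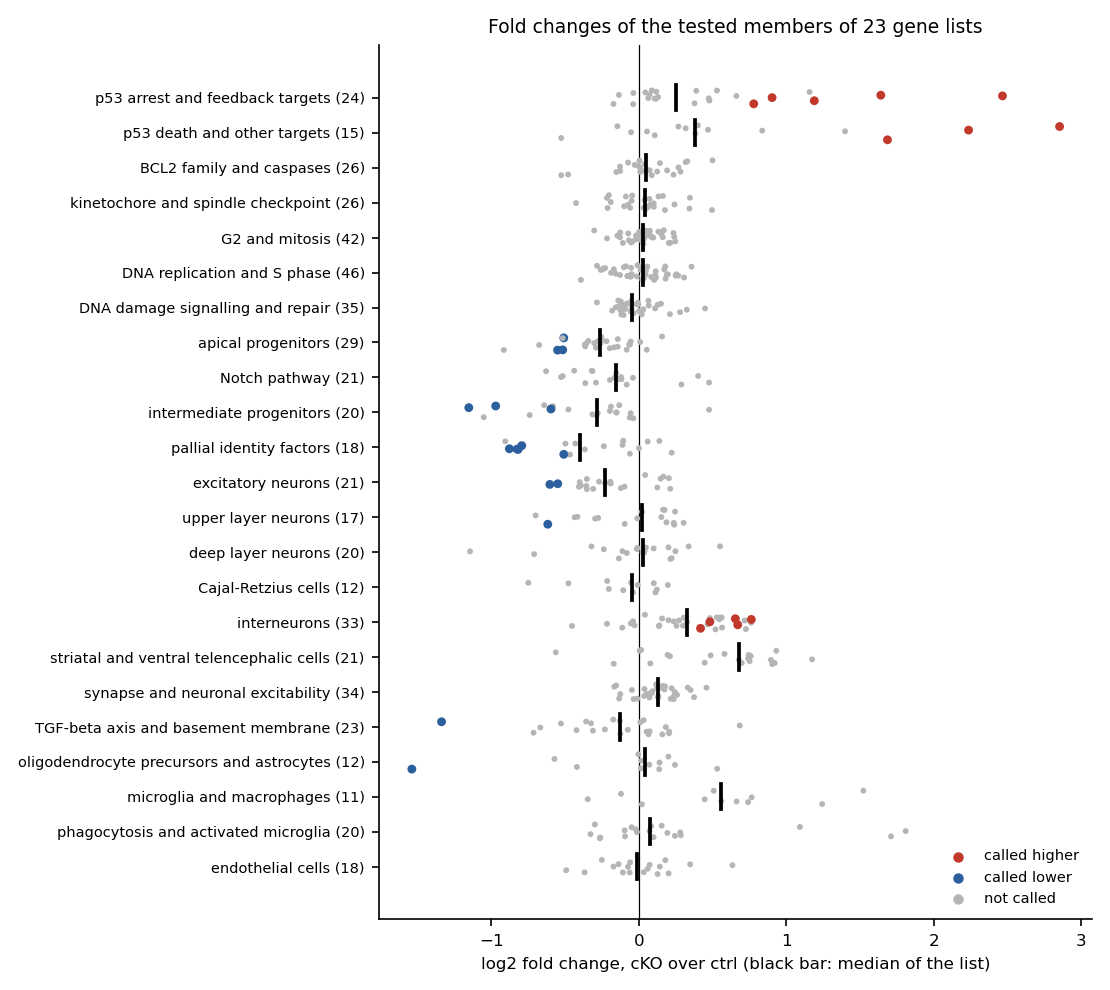
Log2 fold change of cKO over ctrl (x axis) of every tested member of 23 gene lists (y axis, number tested in parentheses), with the list median as a black bar. Red points are called higher, blue points called lower and gray points not called. The calls lie to the right in the p53 and interneuron lists and to the left in the progenitor, pallial and excitatory lists, while the cell division lists are centred near 0 with no calls.

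Markers of other cell types that the dissection could hold gave no calls in the lists below. Of 41 microglia and macrophage genes, 11 passed the filter, 0 were called by the edgeR likelihood ratio test (2 with an unadjusted p below 0.05) or the quasi-likelihood test, and the median was 0.56. Of the 11, 9 were above 0 and 2 below, with log fold changes from −0.347 to 1.52. The summed level of the 41 was 101 to 156 CPM in ctrl and 127 to 170 CPM in cKO, and *Itgam* and *Irf8* were listed at 0 in all mice. *Sox2* and *Neurod1*, genes that cortical progenitors and new neurons use, were also listed at 0 in all mice, so a listed 0 is not read as low expression and neither gene was measured here. Among microglial genes that did not pass the filter, *Lcp2*, an adaptor of immune receptor signaling, had 0, 3, 0 and 0 counts in ctrl mice 2, 6, S3 and S1 and 16, 15 and 20 counts in cKO mice 5, 7 and S2. *Wdfy4*, a gene of immune cells, had 0 counts in all 4 ctrl mice and 11, 9 and 8 counts in those cKO mice. Every ctrl mouse was shallower than every cKO mouse, and neither gene was tested. *Laptm5*, a lysosomal protein of immune cells, was at 0 to 1.56 CPM in ctrl and 2.44 to 4.74 CPM in cKO (1.52, SE 0.53, FDR of 0.111), and *Igf1*, a growth factor that microglia secrete, at 0 to 2.49 CPM and 2.00 to 6.91 CPM (1.71, SE 0.60, FDR of 0.111). Both were at 0 in ctrl mouse 2, where 3 counts were 5.22 CPM, and both were chosen after their values were seen. Choroid plexus genes summed to 65.4 CPM in ctrl mouse 6, of which *Ttr* gave 52.3 CPM, and to 7.11 to 12.4 CPM in the other 6 mice. Meningeal genes summed to 60.8 to 82.2 CPM in ctrl and 61.6 to 70.2 CPM in cKO, and endothelial genes to 175 to 240 CPM and 187 to 212 CPM. In the lists of meninges, endothelium, pericytes, blood, phagocytosis, choroid plexus, and diencephalon and hem, 0 genes were called by the likelihood ratio test or the quasi-likelihood test, and 6, 2 and 1 members of the phagocytosis, diencephalon and hem, and choroid plexus lists had an unadjusted p below 0.05 in the likelihood ratio test. Of 34 synapse and excitability genes, 20 genes of the integrated stress response, 4 interferon response genes, 41 replication-dependent histone genes and 9 mitochondrially encoded genes, 0 were called by either test, with list medians of 0.13, 0.00195, 0.07, −0.04 and 0.06. In the likelihood ratio test 7, 3, 0, 3 and 0 of them had an unadjusted p below 0.05. *Bcan*, described below, was the one call among 12 tested genes of oligodendrocyte precursors and astrocytes.

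Of the 109 called genes, 81 belonged to none of the lists. The lower genes among them included *Creb5*, a CREB-family factor (ENSMUSG00000053007, chromosome 6, 53287270 to 53700376). It was at 337, 346, 437 and 419 CPM in ctrl mice 2, 6, S3 and S1 and at 149, 192 and 318 CPM in cKO. All cKO mice were lower, with S2 nearest to ctrl (−0.76, SE 0.14, edgeR FDR of 0.000154). *Celsr1*, a planar polarity cadherin, fell by 0.88 on the log2 scale (SE 0.20) and *Ankrd6*, a modulator of WNT signals, by 0.61 (SE 0.14). *Tcf7l1*, a repressor of WNT targets, fell by 0.51 (SE 0.14), *Gpc3*, a glypican, by 0.94 (SE 0.25) and *Lpar1*, a receptor for lysophosphatidic acid, by 1.02 (SE 0.26). *Palmd*, paralemmin-like in sequence, fell by 0.78 (SE 0.16) and *Igsf8*, an immunoglobulin-family membrane protein, by 0.64 (SE 0.14). *Onecut2*, a cut-homeobox factor, fell by 0.73 (SE 0.17). Of these genes *Celsr1*, *Tcf7l1*, *Gpc3*, *Lpar1* and *Onecut2* were chosen after their values were seen.

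In some lower genes ctrl mouse S1 lay at or below cKO mouse S2. *Ltbp1*, which binds latent TGF-beta, was at 162, 201 and 132 CPM in ctrl mice 2, 6 and S3 but at 67.6 CPM in ctrl mouse S1. In cKO mice 5, 7 and S2 it was at 53.5, 42.3 and 68.5 CPM, so S1 and S2 of litter 2 coincided (−1.34, SE 0.26, edgeR FDR of 0.000733). *Bcan*, the proteoglycan brevican, was at 27.8, 20.8 and 19.9 CPM in ctrl mice 2, 6 and S3, at 5.41 CPM in S1 and at 6.91, 3.67 and 7.33 CPM in cKO (−1.54, SE 0.40). *Nfix*, a nuclear factor I gene, showed the same order, with 631, 941 and 767 CPM in those 3 ctrl mice, 399 CPM in S1 and 389 to 428 CPM in cKO (−0.78, SE 0.21). With *Col4a6*, *Tspan18* and the antisense gene *Gm11266*, these were the 6 of the 74 lower genes in which S1 lay at or below S2. S1 is the single mouse of batch 2, so batch and mouse cannot be told apart there. Further called genes of secreted proteins were *Adamts9* at −0.98 (SE 0.23), *Adamts19* at −1.25 (SE 0.33), *Dkk3*, a Dickkopf-family protein, at −0.80 (SE 0.21), and the convertases *Pcsk5* and *Pcsk6* at −0.46 (SE 0.12) and −1.11 (SE 0.29). Of 23 tested genes of the TGF-beta axis and basement membrane, *Ltbp1* was the only call, beside *Ltbp4* at −0.71 (SE 0.20, FDR of 0.0523) and *Ltbp3* at −0.67 (SE 0.22, FDR of 0.142). Of the 23, 3 were called lower without ctrl mouse S1, 2 without ctrl mouse 2 or cKO mouse S2 and 0 without cKO mouse 7. Apart from *Ltbp1* and *Bcan*, the genes named in this paragraph were chosen after their values were seen.

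Among higher genes in no list, *Prm1*, protamine 1, had 0 counts in each of the 4 ctrl mice and 16, 44 and 48 counts in cKO mice 5, 7 and S2. Against a floor of 3 counts over these 4 ctrl mice it was at least 15.1-fold higher in the cKO mice compared here. Ctrl mice of litter 3, outside the comparison, did have *Prm1* counts, at levels within or above the range of the cKO mice, as given below. The fitted log fold change depends on the prior count and is not given. *Capn11*, a calpain protease, was at 0 to 2.55 CPM in ctrl and 4.89 to 8.33 CPM in cKO (1.87, SE 0.43, edgeR FDR of 0.000603). *Pid1*, an adaptor that dampens insulin signaling, was at 179 to 277 CPM in ctrl and 324 to 364 CPM in cKO (0.61, SE 0.14, FDR of 0.00451). The noncoding RNA *Sox2ot*, which overlaps *Sox2*, was at 1374 to 1965 CPM in ctrl and 2255 to 2570 CPM in cKO (0.53, SE 0.14). *Sox1ot*, which overlaps *Sox1*, rose by 0.63 (SE 0.17), *Ptpn14*, a phosphatase that restrains YAP, by 1.38 (SE 0.35), and *Glra2*, a glycine receptor subunit, by 0.40 (SE 0.11). *Sox2ot*, *Sox1ot* and *Glra2* were chosen after their values were seen.

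Most called genes lay nearer to 0 in litter 2 than in litter 1. Among the 35 higher genes the median difference was 0.82 in litter 1 and 0.51 in litter 2, and among the 74 lower genes it was −0.91 and −0.48. The difference was larger in litter 1 for 27 of the higher and 65 of the lower genes. These genes were called by a fit to the same mice, with more cKO mice in litter 1 than in litter 2. That choice can favour genes with larger differences in litter 1 and small p-values for a difference between litters. None of the 109 genes passed an FDR of 0.05 in the test of group by litter, and 23 had an unadjusted p below 0.05, against 4.28% of all genes tested. Since cKO mouse S2 is the one cKO mouse of its litter and a female among male ctrl mice, litter, sex and mouse cannot be told apart in this difference.

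**Figure D5:**
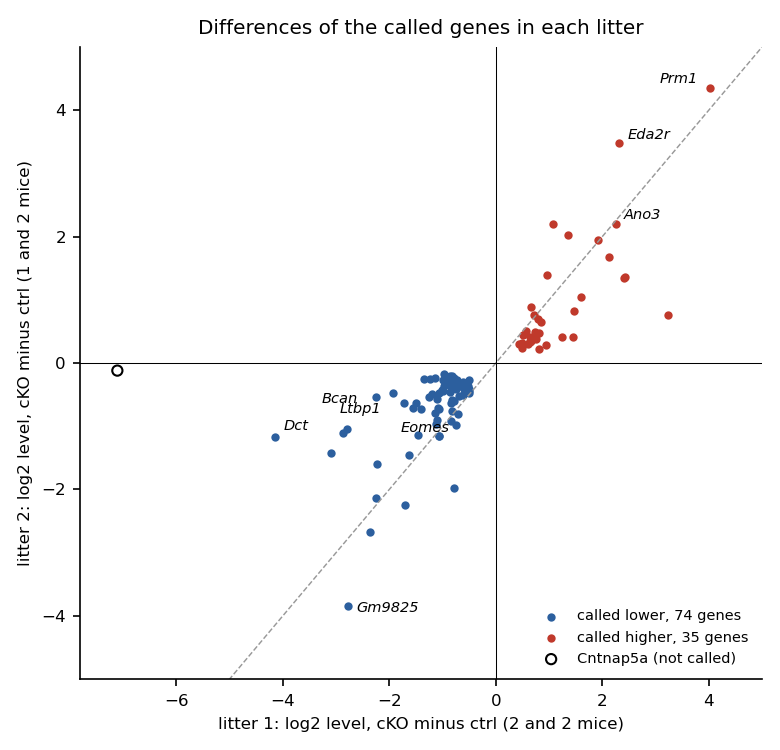
Difference of log2 level between cKO and ctrl in litter 2 (y axis) against litter 1 (x axis) for the 35 genes called higher (red) and the 74 called lower (blue), with the line of equal differences dashed. All 109 genes share the sign, most lie nearer to 0 in litter 2, and *Cntnap5a*, circled, lies far to the left and near 0 on the y axis.

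Over all genes, 13 differed between litters in their response at an FDR below 0.05 (0.104%), and the quasi-likelihood test called 5 of them (0.0401%). The largest was *Cntnap5a*, a neurexin-family adhesion gene (ENSMUSG00000070695, chromosome 1, from 115684756). It was at 118 and 191 CPM in ctrl mice 2 and 6 but at 0.790 and 1.22 CPM in cKO mice 5 and 7 of the same litter, which is 4 and 5 counts. In litter 2 it was at 125 and 134 CPM in ctrl and 119 CPM in cKO, so that among these 7 mice only the cKO mice of litter 1 were low. The response differed by 7.20 on the log2 scale (SE 0.56, edgeR FDR of 1.45e-63). Its paralog *Cntnap5c* (chromosome 17) was called higher, at 99.0 and 124 CPM in litter 1 ctrl, 215 and 159 CPM in litter 1 cKO, 78.1 and 61.1 CPM in litter 2 ctrl and 96.9 CPM in litter 2 cKO (0.61, SE 0.14, FDR of 0.00909). Of the 13 genes, 9 were higher in ctrl mice S3 and S1 than in each of the other 5 mice, among them *Cdk8*, at 2365 and 1732 CPM in S3 and S1 and 188 to 490 CPM elsewhere, and *Cmss1*, at 1125 and 714 CPM against 115 to 276 CPM.

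Called genes were spread over the genome. Per chromosome, between 0.208% and 1.77% of the tested genes of each autosome were called. On chromosome X 2.24% were called, more than on any autosome, 3 higher and 7 lower. The ctrl mice were male except mouse 6, the cKO mice were female except mouse 5, and the fit had no term for sex. With sex added as a covariate, 100 of the 109 genes were called again. That count was not split by chromosome, and the part of sex in the calls on chromosome X was not tested. Of 11611 protein-coding genes 85 were called, 26 higher and 59 lower. Of 38 processed pseudogenes 6 were called, 5 of them lower, and their median was −0.84. They include *Gm9825*, which had at most 5.41 CPM in ctrl and 0.489 CPM in cKO. Retrocopies share sequence with their parent genes, so their reads are uncertain, and ctrl mice were shallower throughout.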

How the data were processed

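The authors deposited one count table per library, whole deduplicated read counts per gene without normalization. Per the labels and the methods of the study, ClickSeq libraries were made from rRNA-depleted RNA, reads were trimmed with cutadapt 1.13, aligned with STAR 2.5.2a to GRCm38/mm10, deduplicated with UMI-tools 0.5.3 and counted with htseq-count (HTSeq 0.6.1p1), and the strand setting is not given in the sources used here. Summary lines were left out. Of 51912 gene identifiers, 51633 were found in the GENCODE vM21 annotation (GRCm38).

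Libraries S2 and S2b (chi-square per degree of freedom 1.14, against 3.56 to 9.76 for other pairs of cKO libraries) were summed as 1 mouse. Genes passing filterByExpr were fitted with edgeR 4.0.16 in R 4.3.3 (TMM, glmFit, glmLRT, litter as blocking factor), and FDR is Benjamini-Hochberg over all genes tested. The difference between litters was the interaction in the same model. Alternatives used the quasi-likelihood test, DESeq2 1.42.0, other scaling, filters and covariates, and fits without each mouse. Fits were tested on simulated data. Plots used matplotlib 3.10.9 (Python 3.11.15).

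Members and the 35 gene lists were chosen with earlier results of these data known. By the naming rule, the text names *Knl1*, genes from the 15 with the smallest p in each direction, up to 6 called members of a list, and genes from the 5 with the smallest p for a difference between litters. The rule also took the most abundant members of lists with no call, of which *Mki67*, *Top2a*, *Ebf1*, *Meis2* and *Pde10a* are named, and those lists are otherwise given by counts, medians and sums. Some genes are not reported here. All other named genes were chosen after their values were seen. Litters 3 and 4, all batch 3, were left out because neither holds both ctrl and cKO mice.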

Additional observations from a re-analysis of the deposited data

Results flagged for a closer look

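*Cntnap5a* was nearly absent from both cKO mice of litter 1 and present at ctrl levels in cKO mouse S2, a difference of 7.20 on the log2 scale between litters (SE 0.56, edgeR likelihood ratio test). In mice outside the comparison it was also present, with 969 counts in cKO mouse F3 of litter 4 and 47, 147 and 50 counts in the ctrl mice of litter 3. The cause was not tested.

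Other genes whose response differed between litters were highest in ctrl mice S3 and S1. Their differences, on the log2 scale in edgeR, were −3.87 for *Mir6236*, −3.13 for *Cdk8*, −2.59 for *Tmsb10*, −2.72 for *Cmss1*, −2.90 for *Gm23935*, −1.28 for *Lars2*, −2.33 for *mt-Rnr1* and −2.03 for *Gm15564*. *mt-Nd2* had −1.26, *Nr4a3* 1.35 and *Gm47283*, which the annotation places on chromosome Y, −5.97. In litter 2, genotype goes with sex, and these cannot be told apart within that litter. Litter 1 holds a male and a female of each genotype. *Cdk8* was at 188 CPM in the male ctrl mouse and 416 CPM in the male cKO mouse of litter 1. In the male ctrl mice S3 and S1 it was at 2365 and 1732 CPM. *Cmss1* was at 115 and 245 CPM in those litter 1 males, against 1125 and 714 CPM in S3 and S1. The part of sex in these differences was not tested.

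In the 4 ctrl mice, 5 of 135 sets of values held a mouse far from the other 3, and chance gives such a gap in about 1 of 20 sets. *Fgd3* was at 34.2 CPM in ctrl mouse S3 against 22.7 to 24.3 CPM in the others, and *Ptpn14* at 7.65 CPM in S3 against 3.25 to 3.47 CPM. *Lpar1* was at 19.1 CPM in ctrl mouse 2 against 48.1 to 50.5 CPM, and *Dct*, a gene of melanin synthesis that was called lower, at 1.87 CPM in ctrl mouse 6 against 11.4 to 12.8 CPM. Choroid plexus genes summed to 65.4 CPM in ctrl mouse 6 against 8.16 to 12.4 CPM.

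*Prm1*, at 0 counts in the 4 ctrl mice compared here, had 5, 8 and 5 counts in ctrl mice T3 (wild type), T4 and T5 (both Casc5 heterozygous) of litter 3, and 17 counts in cKO mouse F3. These 3 ctrl mice were not part of the comparison. The source of these counts was not tested.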

How the results depend on the processing

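Every one of the 109 called genes that could be tested kept its sign under every alternative, while the number called moved with the test. The quasi-likelihood test called 5 genes, 3 higher and 2 lower, and 5 genes for a difference between litters. DESeq2 called 34 (13 and 21). Dropping the litter block left 18 (10 and 8), and adding sex gave 217 (96 and 121), of which 100 were among the 109. Thinning all mice to 574401 counts gave 31 (10 and 21), of which 20 were among the 109. Litter 1 alone gave 169, of which 118 were lower and 76 were among the 109. Of the 109 genes, 61 were called with no filter, and 22 (without cKO mouse 7) to 87 (without ctrl mouse S1) with a mouse left out. Lower genes numbered 37 with no filter and 113 in batch 1 only, and higher genes 56 with S2 and S2b as separate samples. Leaving out a mouse gave 25 (without cKO mouse 7) to 158 (without cKO mouse S2) genes, 9 to 44 higher and 15 to 114 lower, with 36 without ctrl mouse 6 and 49 without cKO mouse 5, and fits with a lone mouse in a litter's arm assume that it varies like the others. RLE size factors (108), library totals (105) and a mean count of at least 10 (100) stayed close to 109. The cause of these moves was not tested.

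Values near 0 changed sign. *Knl1* was at −0.02 with no litter block. *Mki67* was at −0.14 with no litter block, −0.045 with S2 and S2b separate, and −0.12 to 0.26 with a mouse left out (−0.093 without ctrl mouse 2). *Top2a* was at 0.033 with no filter, 0.0060 with sex, 0.042 with library S2 only, 0.11 in litter 1, 0.0034 after thinning and −0.079 to 0.11 with a mouse left out (0.054 without ctrl mouse S3). No paired analysis was possible because ctrl and cKO mice share no replicate numbers. Ctrl depth limits genes of low level, since 3 counts in ctrl mouse 2 were 5.22 CPM.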
